A study of Mus musculus with 12 samples.

Results

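The Schlafen genes of the mouse were followed in embryonic fibroblasts (MEFs) given a synthetic double-stranded RNA. The family was taken as Slfn1, Slfn2, Slfn3, Slfn4, Slfn5, Slfn8 and Slfn9, and its probes were those whose RefSeq transcript accession belongs to one of these symbols. The rule found all 7 genes, among 20656 genes with a named probe, through 9 of the 55681 probes on the array. Slfn8 and Slfn9 had 2 probes each and the other members had 1.

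The study compared 4 groups of 3 Agilent single-colour arrays, and each array held Cy3-labelled total RNA of 1 sample. WT MEFs and MEFs labelled GADD34ΔC/ΔC (ΔC from here on) were left without treatment or were lipofected with high molecular weight (HMW) poly(I:C) at 2.5 µg/ml for 6 h. GADD34, the product of Ppp1r15a, is the inducible subunit that directs protein phosphatase 1 to the translation factor eIF2α, and the labels do not say which part of it the ΔC allele lacks. The labels give 3 independent experiments, do not say from how many embryos or clones the cells came, and list no sample that received the lipid reagent alone, so that poly(I:C) and its carrier cannot be told apart.

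Schlafen proteins share an N-terminal domain that binds and, in some members, cleaves transfer RNA and ribosomal RNA. Slfn1 and Slfn2 are short proteins, Slfn3 and Slfn4 are of intermediate length, and Slfn5, Slfn8 and Slfn9 carry in addition a long C-terminal part that resembles helicases. The family is known for restraining the growth of T cells and for its induction by type I interferon, which MEFs secrete when double-stranded RNA reaches their cytosol. Its genes lie side by side on chromosome 11, in the order Slfn5, Slfn9, Slfn8, Slfn10-ps, Slfn2, Slfn1, Slfn4 and Slfn3 in the reference table.

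The starts of these genes were searched for the letters of interferon-responsive elements. RefSeq promoter windows (build GRCm38.p6, 250 bases before to 50 bases after an annotated start) were found for all 7 members, 8 windows in all, with 2 for Slfn8. The core of the interferon-stimulated response element was searched on both strands as GAAA followed by any 2 bases and a second GAAA, a run that can overlap other purine-rich motifs. It occurred in the windows of Slfn8, Slfn9 and Slfn5 and in no window of Slfn1, Slfn2, Slfn3 or Slfn4. That is 3 of 7 members, beside 3.99% of the 27025 genes with a window and 3.44% of the 32851 windows in the table. In the list of interferon-induced genes acting on RNA or translation, described further on, 9 of the 16 genes with a window (56.2%) held it. The gamma-activated site, searched as TTCNNNGAA on both strands, occurred in 0 of 7 members, beside 9.55% of all genes with a window and 6 of the 16 listed genes (37.5%). The 4 windows printed here are those of the members that were measured well enough to test (Slfn2, Slfn8 and Slfn9) and that of Slfn5, which held a match but gave no signal above background. Slfn2 is read from chr11:83064862-83065161 on the plus strand, Slfn8 from chr11:83020761-83021060 on the minus strand, Slfn9 from chr11:82991781-82992080 on the minus strand and Slfn5 from chr11:82951852-82952151 on the plus strand. Each runs 5′ to 3′ along its own gene, and capitals mark the match to the response element core.
Slfn2: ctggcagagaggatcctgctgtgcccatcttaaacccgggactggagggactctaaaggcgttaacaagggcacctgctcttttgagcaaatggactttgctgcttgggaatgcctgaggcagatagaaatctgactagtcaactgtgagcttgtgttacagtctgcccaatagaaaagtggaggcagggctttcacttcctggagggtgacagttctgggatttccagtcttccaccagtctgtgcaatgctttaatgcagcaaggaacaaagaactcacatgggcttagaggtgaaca
Slfn8: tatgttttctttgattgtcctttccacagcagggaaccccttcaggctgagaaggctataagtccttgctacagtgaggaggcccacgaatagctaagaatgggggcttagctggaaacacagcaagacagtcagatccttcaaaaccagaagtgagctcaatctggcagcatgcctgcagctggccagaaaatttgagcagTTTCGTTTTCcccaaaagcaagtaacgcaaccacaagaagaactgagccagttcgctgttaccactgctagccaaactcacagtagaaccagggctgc
Slfn9: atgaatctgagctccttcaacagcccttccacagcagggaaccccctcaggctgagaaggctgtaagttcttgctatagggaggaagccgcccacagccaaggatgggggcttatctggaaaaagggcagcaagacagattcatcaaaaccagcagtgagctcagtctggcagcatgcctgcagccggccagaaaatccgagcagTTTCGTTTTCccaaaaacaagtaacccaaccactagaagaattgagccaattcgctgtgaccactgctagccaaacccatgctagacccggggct
Slfn5: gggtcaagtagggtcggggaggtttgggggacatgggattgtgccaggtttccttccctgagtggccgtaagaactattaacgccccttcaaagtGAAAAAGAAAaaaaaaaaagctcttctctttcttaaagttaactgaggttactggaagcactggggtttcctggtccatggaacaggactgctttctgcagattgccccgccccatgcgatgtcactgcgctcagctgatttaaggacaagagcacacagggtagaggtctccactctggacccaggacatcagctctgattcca

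In Slfn8 and Slfn9 the capitals are the same 10 letters, TTTCGTTTTC, which read on the opposite strand hold the core. Counted from the annotated start, they span bases -48 to -39 in Slfn8 and -45 to -36 in Slfn9. In the second Slfn8 window, which begins at another annotated start, the same letters span bases -136 to -127. In Slfn5 the match lies farther upstream, from -155 to -146, within a run of adenines. The Slfn8 and Slfn9 windows were alike over most of their length, with 252 identical bases over an alignment of 312 positions (80.8%), whereas every other pair of members shared 46.5% to 53.0%. A match in these windows is a match of letters and does not show that a factor binds there, and a missing match says nothing of sequence outside the window. It says nothing either of near matches inside the window, which were not searched. The Slfn2 window holds such a run, tttcacttcc, and so do the windows of Slfn4 (tttcactttt) and Slfn3 (gtaaaagaaa).

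Levels below are log2 processed intensities minus the 75th percentile of the same array, so that a level of 0 is the brightness of the probe at that percentile. They are compared between arrays for the same probe, and the levels of different genes are not set against each other. A probe counts as well above background where the scanner software flagged it so. A gene entered the test where all 3 arrays of some group had its probe well above background, which gave 15441 genes, fitted with limma across the 12 arrays, and a gene was called at a Benjamini-Hochberg adjusted p under 0.05. In bulk RNA, fewer responding cells and less RNA per cell cannot be told apart.

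Of the 7 members, 3 passed this filter. Slfn9 was well above background on all 12 arrays, Slfn8 on 9 and Slfn2 on 8. Slfn2 passed only through the groups given poly(I:C), so that its presence among the tested genes depended on its level there. Slfn3 was well above background on 2 arrays, Slfn4 on 1, and Slfn1 and Slfn5 on 0. The related genes Slfn14 and Slfnl1 were well above background on 0 of 12 arrays, and Slfn10-ps had no named probe.

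**Figure D1:**
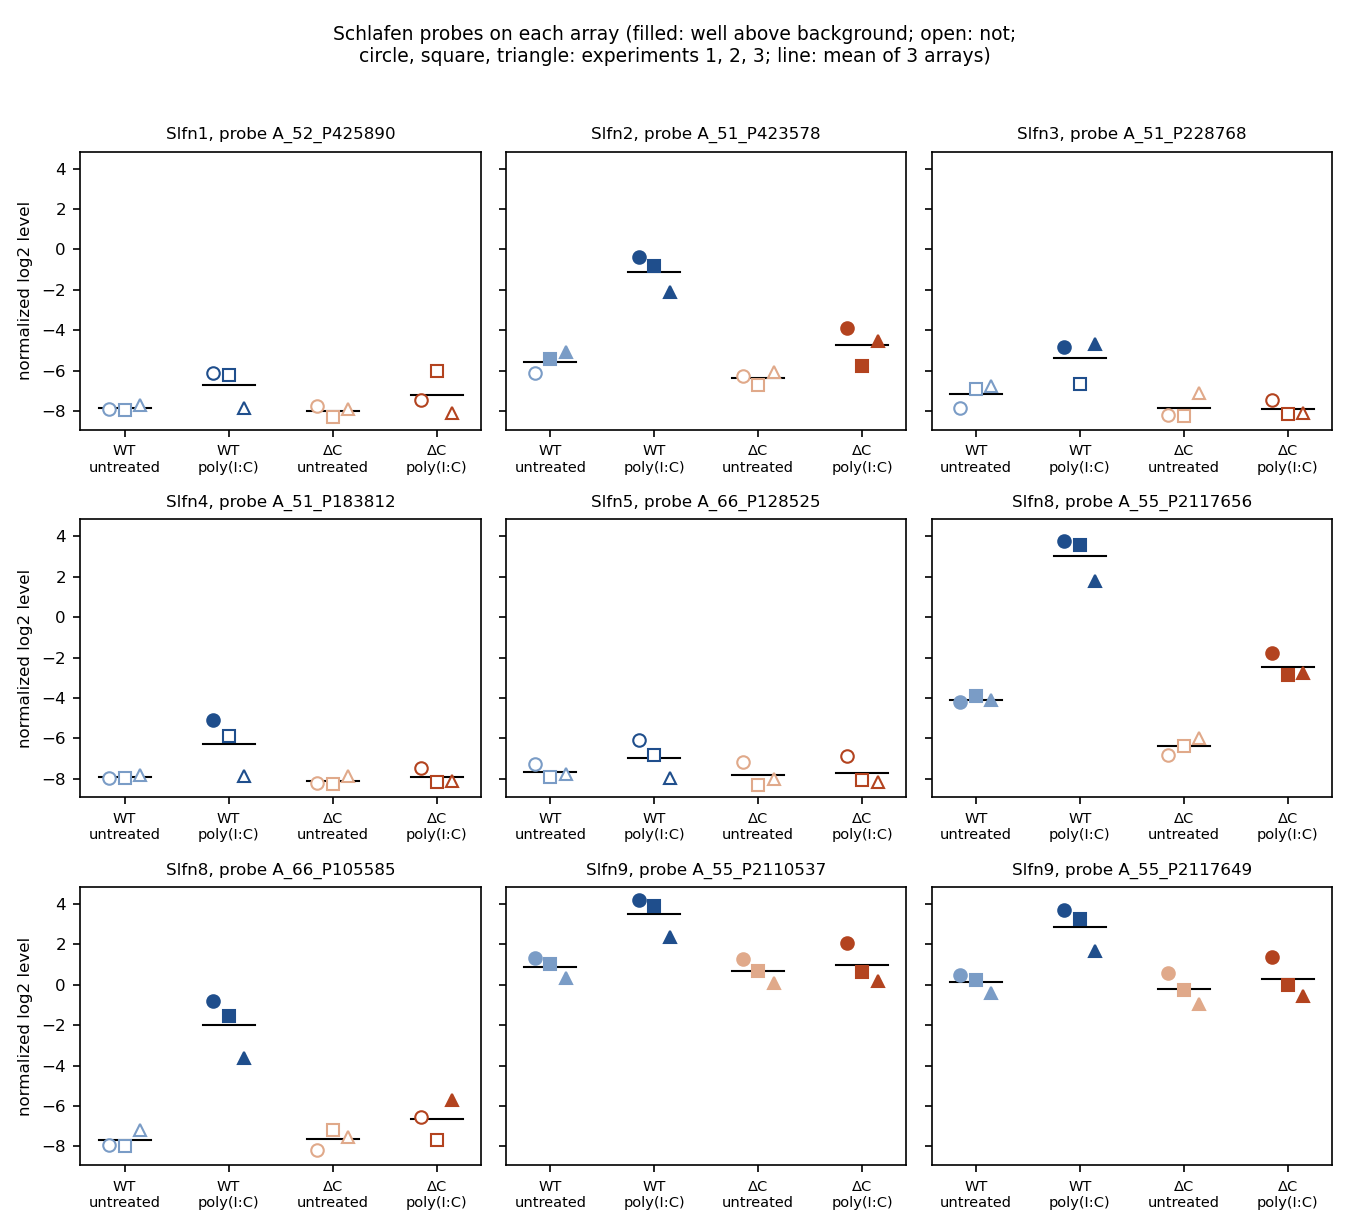
Normalized log2 level of each of the 9 Schlafen probes on each of the 12 arrays, by group; filled symbols are well above background, open symbols are not, symbol shapes mark the 3 experiments and lines are group means. Slfn2, Slfn8 and Slfn9 stand higher in WT cells given poly(I:C) than in every other group, and the third experiment is the lowest of the WT poly(I:C) arrays for these 3 genes.

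In WT cells poly(I:C) raised Slfn8, Slfn2 and Slfn9. All 3 tested members were called higher and 0 lower, beside 5.24% of all tested genes called higher in this comparison. Slfn8 and Slfn9 were well above background on all 3 untreated WT arrays. Slfn2 entered the test only through the groups given poly(I:C), so that its place in this count depends partly on the level compared. The groups did not overlap for any of the 3, as for 12% of all tested genes in this direction. The rise was 139-fold for Slfn8, 21.6-fold for Slfn2, which had 1 untreated array not well above background, and 6.13-fold for Slfn9. Its size depended on the setting. On the log2 scale the Slfn8 rise of 7.12 became 5.59 with the normexp background correction, 6.41 with the mean of both probes, 7.76 without the treated WT array of experiment 3 and 7.74 without all 4 arrays of that experiment. The Slfn2 rise of 4.43 became 2.32 with normexp, 5.06 with array weights and 5.17 without those 4 arrays.

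Slfn8 encodes one of the long members, a relative of nucleases that cut transfer RNA. Its level was -4.22, -3.92 and -4.12 on the untreated WT arrays of experiments 1, 2 and 3 and 3.78, 3.55 and 1.76 on the WT arrays with poly(I:C). The untreated arrays were close together, and the treated array of experiment 3 was the lowest of its group yet far above all untreated arrays. The difference was 7.12 ± 0.49 (SE, n = 3 against 3; limma adjusted p = 2.28e-05). Among the 14103 genes well above background on all 6 of these arrays, Slfn8 had rank 11 from the largest rise.

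Slfn2, a short member that binds transfer RNA and shields it from cleavage under stress, was near background before treatment. Its level was -6.13, -5.40 and -5.08 on the untreated WT arrays, of which the last 2 were well above background. With poly(I:C) it was -0.40, -0.80 and -2.13, well above background on all 3. The rise was 4.43 ± 0.54 (SE, n = 3 against 3; limma adjusted p = 0.000815).

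Slfn9, the closest relative of Slfn8 in the cluster, was bright without treatment. Its level was 1.30, 1.03 and 0.31 on the untreated WT arrays and 4.21, 3.91 and 2.36 with poly(I:C). The groups did not overlap, and experiment 3 was the lowest in both. The rise was 2.62 ± 0.58 (SE, n = 3 against 3; limma adjusted p = 0.0257), with rank 156 among the same 14103 genes. The Slfn8 and Slfn2 calls held in all 27 alternatives run for them, of which some, such as leaving out a ΔC array, cannot change the estimate. The Slfn9 call held in 22 of 28, among them the experiment number as a block, which pairs the samples (limma adjusted p = 7e-04). It was lost with the slide as a block (2.27, limma adjusted p = 0.0952), with only the WT groups fitted (2.62, adjusted p = 0.063), and without the untreated WT array of experiment 1 (2.83, adjusted p = 0.0643) or 2 (2.69, adjusted p = 0.0755) or the treated WT array of experiment 1 (2.26, adjusted p = 0.127) or 2 (2.41, adjusted p = 0.12). The slide that held both WT conditions gave 2.88 from 1 array each for Slfn9, 7.47 for Slfn8 and 4.60 for Slfn2. The scan day that held both gave 3.03, 7.59 and 4.80 from 1 untreated and 2 treated arrays.

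The other 4 members gave only traces in WT cells. Slfn3, a member studied in the differentiation of gut epithelium, read -4.82, -6.63 and -4.66 with poly(I:C), and the first and last of these were well above background. Slfn4, a member described in myeloid cells, was well above background only on the treated WT array of experiment 1, at -5.09. Neither gene was well above background on any other array of the 4 groups. Slfn1, the founding member of the family, and Slfn5, a long member found in the nucleus, ranged over the 12 arrays from -8.29 to -6.01 and from -8.28 to -6.07. None of these 4 passed the filter, and no difference is given for them.

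In ΔC cells the same treatment raised Slfn8 in the main setting, by at least 12.3-fold, while Slfn2 and Slfn9 did not pass the test. With normexp the Slfn8 rise was smaller, 1.54 on the log2 scale, and was not called. Of the 3 tested members, 1 was called higher and 0 lower, beside 1.82% of all tested genes called higher. The groups did not overlap for Slfn8 and Slfn2, as for 8.78% of all tested genes in this direction, and overlapped for Slfn9. Slfn2 was among the tested genes only through its treated levels.

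Slfn8 read -6.80, -6.39 and -5.96 on the untreated ΔC arrays, none of them well above background, and -1.79, -2.88 and -2.76 with poly(I:C), all well above it. The untreated level is therefore known only as a bound. The bound of at least 12.3-fold sets the treated mean against, on each dim array, the higher of the probe's own level and the lowest level of any probe well above background, as do all bounds here. Such bounds hold for the main setting only. A dim probe can lie above that lowest level, as Slfn1 did on the treated ΔC array of experiment 2 (-6.01 against -6.18). The fitted rise was 3.91 ± 0.49 (SE, n = 3 against 3; limma adjusted p = 0.00206). The call was lost in 5 of the 27 alternatives run, namely the normexp background correction (1.54, adjusted p = 0.157), the mean of both probes (2.45, adjusted p = 0.0568), the slide as a block (4.15, adjusted p = 0.091), the authors' deposited table with all its columns (2.92, adjusted p = 0.2) and the second probe (0.99, adjusted p = 0.647).

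Slfn2 read -6.25, -6.71 and -6.07 on the untreated ΔC arrays, none well above background, and -3.89, -5.78 and -4.53 with poly(I:C), all well above it. Each treated value was above each untreated one, a difference of at least 2.57-fold. It did not pass the test across all genes (fitted difference 1.61 ± 0.54 (SE, n = 3 against 3); limma adjusted p = 0.28). With limma array weights it did (1.82, adjusted p = 0.0229), and over the 27 alternatives the adjusted p ran from 0.0229 to 0.74. The difference was 0.46 with normexp and 1.02 in the authors' deposited table.

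Slfn9 read 1.26, 0.68 and 0.10 on the untreated ΔC arrays and 2.08, 0.63 and 0.20 with poly(I:C). These values overlapped, and only the treated array of experiment 1 lay above all untreated ones. The difference was 0.29 ± 0.58 (SE, n = 3 against 3; limma adjusted p = 0.893), with a 95% interval that reaches up to 1.59 and so still admits a rise. Without the treated ΔC array of experiment 1 it was -0.26 (adjusted p = 0.949). Within the slide that held both ΔC conditions Slfn8 differed by 5.01, Slfn2 by 2.37 and Slfn9 by 0.82 (1 array each), and within such a scan day by 4.80, 2.59 and 1.11 (2 untreated arrays and 1 treated).

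**Figure D2:**
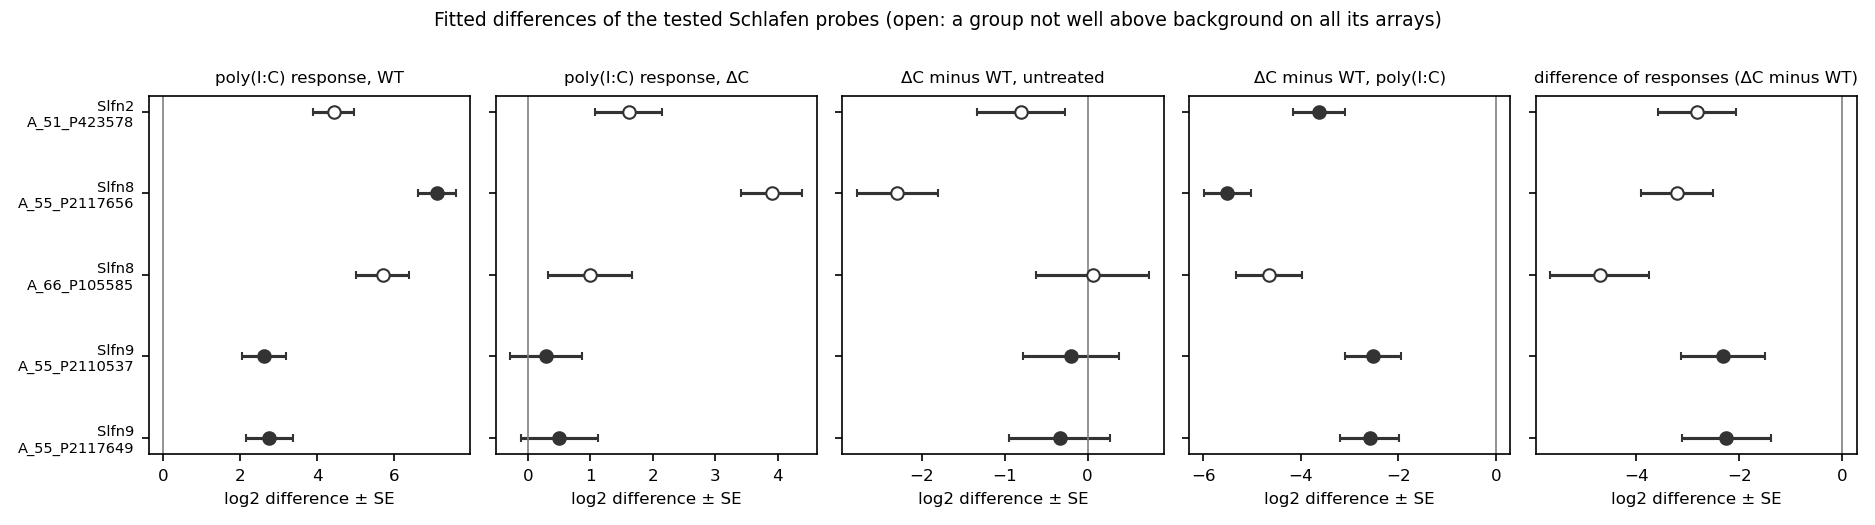
Fitted log2 difference with its SE (bars) for each tested Schlafen probe in the 5 comparisons, 3 arrays per group; open points have at least 1 group in which the probe was not well above background on all 3 arrays. In cells given poly(I:C) all 5 probes lie below 0, from -5.51 to -2.52, and without treatment the main Slfn8 probe lies at -2.30.

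Set against WT cells under the same poly(I:C), ΔC cells held less RNA of all 3 tested members. All 3 were called lower and 0 higher, beside 9.04% of all tested genes called lower. Slfn8 was 45.6-fold lower, Slfn2 12.3-fold lower and Slfn9 5.75-fold lower. On the log2 scale the Slfn8 difference of -5.51 became -4.82 with normexp, -6.39 in the authors' deposited table and -6.15 without the treated WT array of experiment 3. The Slfn2 difference of -3.62 became -2.21 with normexp and -4.24 without the 4 arrays of experiment 3. The groups did not overlap for any of the 3, as for 18.9% of all tested genes in this direction.

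The treated arrays were those given above. The highest ΔC value of Slfn8, -1.79, lay well under the lowest WT value, 1.76. For Slfn2 these were -3.89 and -2.13, and for Slfn9 2.08 and 2.36, a narrow gap. The difference was -5.51 ± 0.49 for Slfn8 (SE, n = 3 against 3; limma adjusted p = 6.59e-05), -3.62 ± 0.54 for Slfn2 (limma adjusted p = 0.00133) and -2.52 ± 0.58 for Slfn9 (limma adjusted p = 0.0129). Slfn8 had rank 9 from the largest fall among the 13987 genes well above background on all 6 treated arrays, Slfn2 had rank 59 and Slfn9 rank 163.

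The Slfn9 call held with the experiment number as a block, which pairs the samples (limma adjusted p = 0.000434). It was lost with only the treated groups fitted (-2.52, limma adjusted p = 0.0513), without the WT array of experiment 1 (-2.17, adjusted p = 0.0586) or 2 (-2.32, adjusted p = 0.0558), and without the ΔC array of experiment 2 (-2.35, adjusted p = 0.0501). The slide holding both genotypes after treatment gave -5.58 for Slfn8, -3.49 for Slfn2 and -2.13 for Slfn9 from 1 array each. The scan day holding both gave -5.46, -3.29 and -1.98 from 2 WT arrays and 1 ΔC array.

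Without treatment Slfn8 alone among the tested members was called different between the genotypes, and it was read there by only 1 of its probes. Slfn8 was well above background on the 3 WT arrays, at -4.22, -3.92 and -4.12, and on none of the 3 ΔC arrays. It was at least 4.02-fold lower in ΔC cells (fitted difference -2.30 ± 0.49 (SE, n = 3 against 3); limma adjusted p = 0.00887). That is 1 of 3 tested members called lower and 0 higher, beside 10.2% of all tested genes called lower, a common call in this comparison. It was lost with normexp (-0.77, adjusted p = 0.22), with the mean of both probes (-1.12, adjusted p = 0.176), and with the slide as a block (-2.47, adjusted p = 0.0992). On the second probe neither untreated genotype was well above background, so that it could not show a difference. The slide and the scan day holding both genotypes gave -2.47 (1 array each) and -2.67 (1 WT array and 2 ΔC arrays).

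Untreated Slfn9 and Slfn2 did not pass the test. Slfn9 differed by -0.20 ± 0.58 (SE, n = 3 against 3; limma adjusted p = 0.832; 95% interval -1.49 to 1.10), and the 3 WT and 3 ΔC values overlapped. The small difference turned positive without the untreated WT array of experiment 1 (0.010) or the ΔC array of experiment 3 (0.089). Slfn2 differed by -0.81 ± 0.54 (SE, n = 3 against 3; limma adjusted p = 0.313), also with overlapping values, and was well above background on no untreated ΔC array. The slide and scan day holding both genotypes gave -1.30 and -1.08 for Slfn2 and -0.35 and -0.063 for Slfn9.

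The test of whether the response itself differed between the genotypes called none of the 3. The ΔC response minus the WT response was -3.21 ± 0.69 for Slfn8 (SE, n = 3 per group; limma adjusted p = 0.281), -2.82 ± 0.76 for Slfn2 (limma adjusted p = 0.446) and -2.32 ± 0.82 for Slfn9 (limma adjusted p = 0.685). All 3 had an unadjusted p under 0.05, as had 836 of the 15441 genes, and none passed after adjustment, beside 0.013% of all tested genes called lower and 0.00648% called higher here. With the experiment number as a block, which pairs the samples, none of the 3 passed either. The limma adjusted p was then 0.175 for Slfn8, 0.333 for Slfn2 and 0.0605 for Slfn9, and 37 genes were called lower and 4 higher. For Slfn8 and Slfn2 the untreated ΔC level was not well above background, so that the ΔC response in this difference is a fitted value and not one measured on both sides. For Slfn8 the difference passed without the treated WT array of experiment 3 (-3.85, adjusted p = 0.00387), without the 4 arrays of that experiment (-3.48, adjusted p = 0.0256), with array weights (-3.56, adjusted p = 0.00528) and with normexp (-4.05, adjusted p = 0.0483). For Slfn2 it passed with array weights alone (-3.24, adjusted p = 0.0207), and for Slfn9 under no alternative, with adjusted p from 0.0537 to 1.

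The treated level minus the untreated level was also taken within each experiment. The difference for Slfn8 was 8.00, 7.47 and 5.88 in WT cells of experiments 1, 2 and 3 and 5.01, 3.51 and 3.20 in ΔC cells. For Slfn2 it was 5.74, 4.60 and 2.96 in WT cells and 2.37, 0.93 and 1.54 in ΔC cells. The untreated ΔC arrays of both genes were not well above background, so that these ΔC differences are set against background and do not show which genotype responded more. For Slfn9, well above background on every array, it was 2.91, 2.88 and 2.06 in WT cells and 0.82, -0.046 and 0.10 in ΔC cells, and each WT value was above the ΔC value of the same experiment. Experiment 3 had the smallest WT difference for all 3 genes. It was also the smallest for the median of the list of interferon-induced genes acting on RNA or translation, at 5.45, 5.79 and 3.66 in WT cells.

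**Figure D3:**
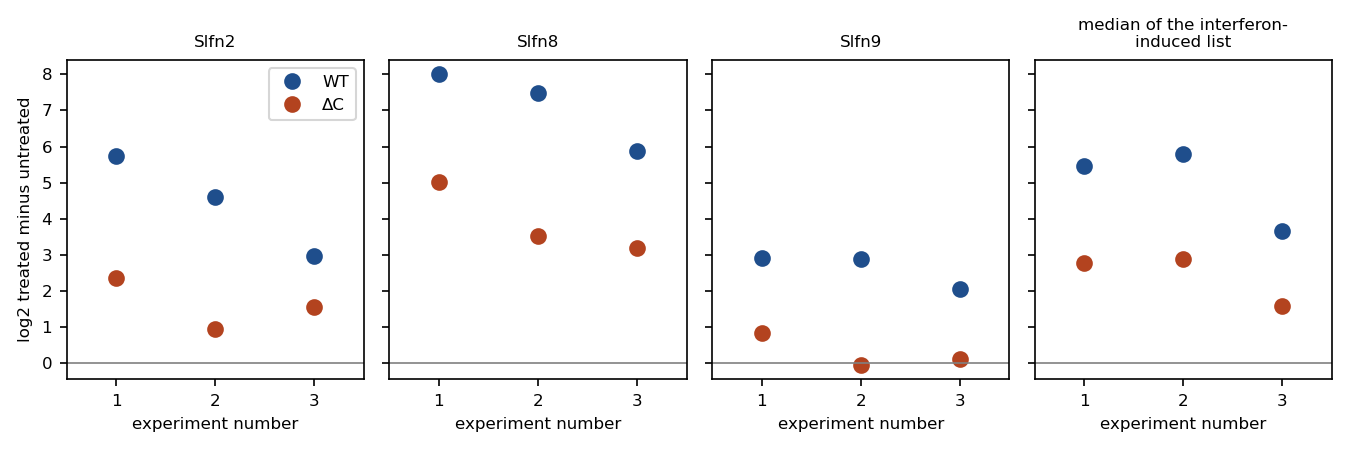
Log2 treated minus untreated level in each of the 3 experiments, for Slfn2, Slfn8, Slfn9 and the median of the 20 tested interferon-induced genes that act on RNA or translation; blue is WT and red is ΔC. For Slfn9 the WT points lie between 2.06 and 2.91 and the ΔC points between -0.046 and 0.82; the ΔC points of Slfn2 and Slfn8 are set against untreated arrays that were not well above background.

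The pairs of probes allowed a check within genes. The 2 Slfn9 probes gave nearly the same picture over the 12 arrays (Pearson r = 0.997, a description over arrays that share the 4 groups). On the second one the WT rise was 2.75 (limma adjusted p = 0.032 over 35199 probes), the ΔC difference 0.50 (adjusted p = 0.871) and the treated difference between genotypes -2.59 (adjusted p = 0.0182). At this probe level 3.59% of probes were called higher in the WT response and 6.43% lower in treated ΔC cells.

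The second Slfn8 probe, which carries another RefSeq transcript, could be read in treated WT cells and on 1 of the 6 ΔC arrays. It passed the filter only through the treated WT group, so that its presence among the tested probes depended on its level there. It read -7.95, -7.98 and -7.17 on the untreated WT arrays, none well above background, and -0.81, -1.55 and -3.62 with poly(I:C), all well above it, at least 14.96-fold higher. In ΔC cells it read -8.18, -7.20 and -7.54 without treatment and -6.56, -7.66 and -5.72 with it. Only the last of these 6 values was well above background, so that the probe could not show whether Slfn8 rose in ΔC cells. Its 3 treated ΔC values lay below its 3 treated WT values, with a fitted difference of -4.65 that was not measured on both sides, in the same direction as the -5.51 of the main probe. The files give no probe sequence, so that the exons read by each probe, and any hybridisation to the close relatives Slfn8, Slfn9 and Slfn10-ps in common, were not tested.

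The genes around them in the interferon pathway give the setting. Of 12 genes of upstream interferon signalling, all tested, 7 rose in WT cells (median log2 change 3.16) and 6 in ΔC cells (1.93), and 0 fell in either. The largest rises in WT were those of Ifnb1 (13.81 ± 0.67 (SE), limma adjusted p = 3.04e-06; at least 4744-fold) and Ifna4, an interferon-α gene (9.83 ± 0.61 (SE), adjusted p = 1.27e-05; at least 270.0-fold). Irf9, the DNA-binding subunit of the factor that recognises the response element, rose by 3.19 in WT and 2.24 in ΔC cells (limma adjusted p = 1.6e-05 and 0.000307). In treated cells 4 of the 12 were lower in ΔC and 0 higher (median -0.93), beside 9.04% of all tested genes called lower. The largest fall of the 12 was that of Ifna4 (-2.15, limma adjusted p = 0.0316). Ifnb1 itself differed by -1.17 ± 0.67 (SE, n = 3 against 3; limma adjusted p = 0.251). Its treated groups did not overlap, as for 18.9% of all tested genes in this direction. Within experiments 1, 2 and 3 the difference was -1.61, -1.59 and -0.30.

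A list of 22 interferon-induced genes that act on RNA or on translation, as Schlafens do, held 20 with a tested probe. In WT cells 19 rose and 0 fell (median 5.03, beside -0.14 over all tested genes), led by Ifit1, which binds the cap of foreign RNA (8.53), and Oasl1, an inhibitor of Irf7 translation (7.65, both limma adjusted p = 6.09e-06). The Slfn8 rise was larger than that of 17 of the 20, the Slfn2 rise than that of 9 and the Slfn9 rise than that of 3. In ΔC cells 10 rose and 0 fell (median 2.44, beside -0.052 over all tested genes), and the Slfn9 value exceeded that of 2 of the 20. Slfn8 and Slfn2 are not ranked here, since their untreated ΔC level was not well above background.

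In treated cells 12 of the 20 were lower in ΔC than in WT and 0 higher (median -1.62), beside 9.04% called lower and a median of 0.0055 over all tested genes. The largest falls among the 20 were those of Zbp1, a sensor of Z-form RNA (-5.16, limma adjusted p = 0.000517), and Oas2, which makes the activator of RNase L (-4.78, adjusted p = 0.000935). The Slfn8 value of -5.51 lay below all 20, that of Slfn2 was exceeded by 3 larger falls and that of Slfn9 by 6. Without treatment 2 of the 20 were higher in ΔC and 0 lower (median 0.25, beside -0.055), namely Ifih1, the cytosolic sensor MDA5 (2.69, limma adjusted p = 0.00167), and Oasl1 (2.19, adjusted p = 0.00437). The lowest value among the 20 was -1.05, and Slfn8 was at least 4.02-fold lower. The difference of responses was called by limma in 0 of the 20 (median -2.47). Of the 20, 17 had an unadjusted limma p under 0.05, all of them negative, beside 836 of all 15441 genes in either direction.

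**Figure D4:**
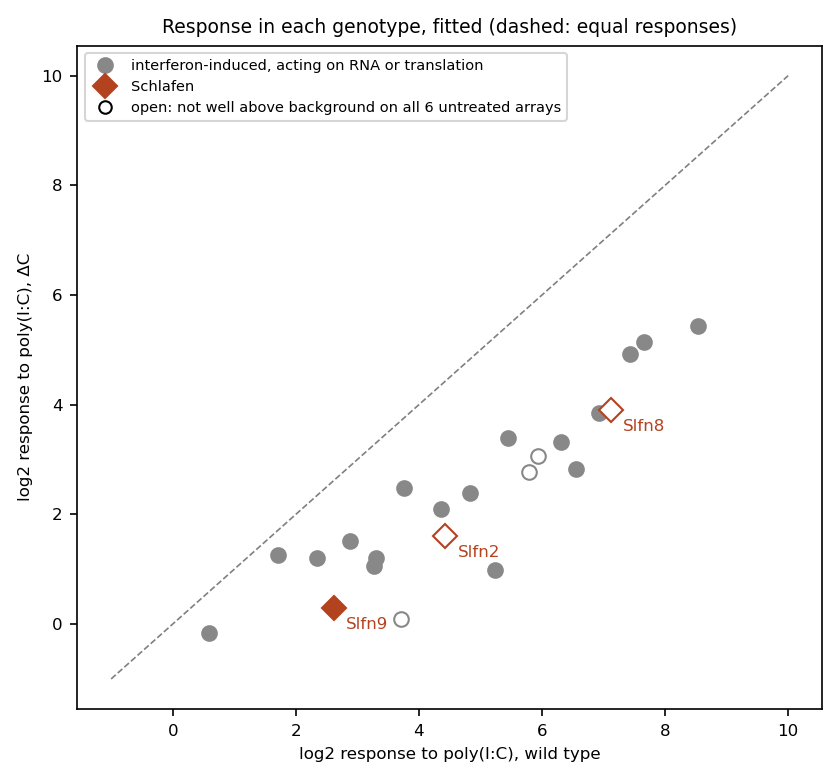
Fitted log2 response to poly(I:C) in WT cells (x axis) against that in ΔC cells (y axis) for the 3 tested Schlafen genes (red diamonds) and 20 interferon-induced genes acting on RNA or translation (grey circles); open symbols were not well above background on all 6 untreated arrays, and the dashed line marks equal responses. All of these genes lie below the line by their fitted values, which for Slfn8 and Slfn2 are set against untreated ΔC arrays not well above background, with Slfn8 at 7.12 and 3.91, Slfn2 at 4.43 and 1.61 and Slfn9 at 2.62 and 0.29.

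The genes of transfer RNA cleavage and protection, a process in which Slfn2 takes part, showed no called response. Of 6 tested, 0 were called by limma in the WT or the ΔC response (medians -0.070 and 0.0068). In either response 0 of the 6 had an unadjusted limma p under 0.05, beside 4049 (WT) and 1681 (ΔC) of all 15441 genes. The 2 largest changes in WT were those of Ang2, an angiogenin-family ribonuclease (-0.37, limma adjusted p = 0.253), and Elac2, the enzyme that trims the 3′ end of transfer RNA precursors (0.31, adjusted p = 0.196). In ΔC cells 1 of the 6 was lower without treatment, Ang2 (-0.77, limma adjusted p = 0.0205), and 1 with it, Elac2 (-0.49, adjusted p = 0.0334). Over all tested genes 10.2% and 9.04% were called lower in these comparisons.

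The genes bordering the Schlafen cluster showed no called response either. Of the 10 tested genes nearest to it, 5 on each side, 0 were called by limma in the WT or the ΔC response (medians 0.14 and 0.13). In each response 1 of the 10 had an unadjusted limma p under 0.05, beside 4049 (WT) and 1681 (ΔC) of all 15441 genes. The largest changes in WT were those of Nle1, a ribosome assembly factor (0.62, limma adjusted p = 0.0869), and Unc45b, a myosin chaperone (-0.41, adjusted p = 0.756). In ΔC cells Unc45b was well above background on 0 untreated and 3 treated arrays, did not overlap between the groups and was at least 2.83-fold higher with poly(I:C), and did not pass the test (fitted difference 1.59, limma adjusted p = 0.503). AI662270, with 0 and 1 such arrays, had a fitted difference of 1.31 (limma adjusted p = 0.623).

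Some neighbours differed between the genotypes. Without treatment 4 of the 10 were lower in ΔC cells and 0 higher (median -0.38), beside 10.2% of all tested genes called lower and an all-gene median of -0.055. With treatment the counts were 4 and 0 (median -0.28), beside 9.04% and 0.0055. The largest fall was that of AI662270, a long noncoding RNA gene and the next annotated gene beyond Slfn3. It read -1.34, -1.56 and -4.18 on the untreated WT arrays, all well above background, and -8.19, -8.37 and -7.96 on the untreated ΔC arrays, none well above it, so that it was at least 13.3-fold lower (limma adjusted p = 0.00119). With poly(I:C) it read -1.42, -1.42 and -3.41 in WT and -6.54, -8.24 and -5.80 in ΔC cells, where only the last was well above background (-4.77 ± 0.85 (SE, n = 3 against 3), adjusted p = 0.00351). The next was Rad51d, a DNA repair gene on the Slfn5 side (-0.92 in both comparisons, limma adjusted p = 0.00531 and 0.00552).

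For each tested member the 3 genes most like it were found by the Pearson correlation of levels over the 12 arrays, as a description of arrays that share 4 groups and 3 experiments. Slfn8 ran closest to Phf11d (0.992), Phf11a (0.992) and Oas2 (0.985). Slfn2 ran closest to Lgals3bp (0.980), Lypd6b (0.979) and Fam110b (0.977). Slfn9 ran closest to Dcp2 (0.968), Apobec1 (0.966) and Rbm47 (0.965). Among themselves Slfn8 and Slfn2 were the most alike (0.974), while Slfn9 reached 0.888 with Slfn2 and 0.867 with the main Slfn8 probe.

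The labels held for the targeted gene. Ppp1r15a was well above background on all 6 WT arrays, at 2.62 to 3.36 without and 5.79 to 5.83 with poly(I:C), and on 1 of 6 ΔC arrays, at least 485-fold lower without treatment (limma adjusted p = 6.15e-05). Of 10 fibroblast markers, 8 were well above background on all 12 arrays, Thy1 on 10 and Lum on 0. Of the 9 tested fibroblast markers, 0 were called by limma in the WT or ΔC response. In untreated ΔC cells 3 of the 9 were lower and in treated ones 2, beside 10.2% and 9.04% of all tested genes. These were Col3a1, a fibrillar collagen (-3.64 and -3.56, limma adjusted p = 0.0037 and 0.00427), Vim, the intermediate filament vimentin (-0.63 and -0.54, adjusted p = 0.00485 and 0.0104), and without treatment Pdgfrb, a growth factor receptor (-1.89, adjusted p = 0.0145). The summed linear level of the fibroblast markers ranged from 620 to 707 in untreated WT and from 295 to 582 in untreated ΔC cells, without overlap. With treatment it ranged from 560 to 658 in WT and from 308 to 580 in ΔC cells. Schlafens are abundant in leukocytes, and leukocyte markers were followed beside them. The level of Ptprc, the common leukocyte antigen, was -4.77 and -5.16 in the untreated means of WT and ΔC cells and -4.97 and -4.42 in the treated ones, with no comparison called, and Lyz2, Cd3d and Cd79b were well above background on 0 arrays. Of 4 tested macrophage markers 0 were called by limma in the WT or ΔC response. An unadjusted limma p under 0.05 was found for 1 and 0 of them, beside 4049 and 1681 of all 15441 genes. In untreated ΔC cells 3 of the 4 were lower and in treated ones 1 (Cd14, -0.77, limma adjusted p = 0.0126), beside 10.2% and 9.04% of all tested genes. The summed linear level of the list ranged from 19.7 to 23.5 in untreated WT and from 9.97 to 12.9 in untreated ΔC cells. With treatment the ranges were 14.2 to 16.4 in WT and 10.5 to 12.8 in ΔC cells. Of 5 tested T cell markers, Lck alone was called, higher in the WT response (1.72, limma adjusted p = 0.00843) and in untreated ΔC cells (1.59, adjusted p = 0.00509). Of 4 epithelial markers, Epcam and Cdh1 were well above background on the 6 ΔC arrays and on 0 WT arrays and were called higher in ΔC cells in both genotype comparisons, while Krt8 was so on all 6 WT arrays and on 3 of 6 ΔC arrays and was lower in untreated ΔC cells (-1.91, limma adjusted p = 0.0118). Krt18, well above background on all 12 arrays, was not called, and the summed level of the list overlapped between the genotypes (0.382 to 3.503 in treated WT and 1.22 to 2.89 in treated ΔC cells). The part of these cell markers in the Schlafen results was not tested.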

How the data were processed

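RNA of 12 samples was hybridised to Agilent single-colour arrays, 200 ng per sample per the labels' protocols. Per the file headers, the scanner software was Feature Extraction 10.7.3.1, and the deposited files give each of 62976 spots a processed intensity, background-subtracted and not normalized between arrays. A series-wide table of log2 values was deposited as well, for which the submitters' processing notes name limma, with scale and steps not given in the sources used here. Its columns share a median of 5.28. Set against the scanner values, 11 columns matched their own array best, with r of 0.998998 or more, and that of the treated ΔC sample of experiment 1 reached 0.949, below the 0.974 it reached with an untreated WT array, so that the table served only as an alternative.

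From the scanner files, control spots were dropped together with 91 to 163 spots per array that carried an outlier flag, 0 spots were saturated, log2 values of a probe's spots were averaged, and the 75th percentile of each array was subtracted. Of 55681 probes, 60.4% to 67.3% per array were well above background. RefSeq accessions named 27229 probes through the reference table (GRCm38.p6), and 28452 stayed unnamed. Where several probes named a gene, 1 was kept by its mean signal over all arrays. limma 3.58.1 in R 4.3.3 fitted 1 mean per group over the 12 arrays (8 residual degrees of freedom, prior 2.19, two-sided) and was tested on simulated data. The files' array design used mm9, so that no gene or probe is placed by it. Arrays carry no count depth, and their number limits the precision.

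The members and lists were chosen with earlier results of these data known. Named were the members, the targeted gene, the 3 genes most like each tested member, and for each list counted the largest called changes (the largest changes where none was called); Irf9, Ifnb1, Cd14 and the defining markers were named beyond that rule, after their values were seen, and 1 gene that the rule would name is not reported here. Deviations from the group means of same-numbered samples correlated by 0.115 to 0.651 in every comparison, so the numbers, which the labels tie to independent experiments, pair the samples. Results were recomputed under 26 other settings, which covered scaling, background correction, filter, probe choice, blocks (replicate, slide, scan day), fitted groups, moderation, array weights, the authors' table and left-out arrays, and under 2 chosen after seeing the data (the second probes of Slfn8 and Slfn9, and the authors' table less the mismatched column).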

Additional observations from a re-analysis of the deposited data

How the results depend on the processing

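The WT rises and the treated genotype differences of Slfn8 and Slfn2 kept their direction and call in all 27 alternatives run for them. Some of these, such as leaving out an array of a group outside the comparison, cannot change the estimate. The filter that asks for a probe well above background on all 12 arrays leaves only Slfn9 to test, so that 1 member was called in the WT response, 1 in the treated comparison and 0 in the other comparisons. For the ΔC response, where 1 member was called, 0 were called with normexp, with the mean of probes, with the slide as a block, with the authors' table and with the second probes, and 2 with array weights; without that table's mismatched column Slfn8 passed again (3.43, limma adjusted p = 0.0106). For the untreated comparison, 0 were called with normexp, the mean of probes, the slide as a block and the second probes, in place of 1. For the difference of responses, 1 was called with normexp, 2 with array weights and 1 without the 4 arrays numbered 3, in place of 0, and leaving out single arrays gave 0 to 1. The cause of these changes was not tested. Values that changed sign were those of Slfn9 in the ΔC response, which ran from -0.26 to 0.68 with single arrays left out and was -0.26 in the authors' table without its mismatched column, of Slfn9 in the untreated comparison, which ran from -0.49 to 0.089 with single arrays left out, and of the second Slfn8 probe in the untreated comparison (0.061, with neither genotype well above background); none was called. With the replicate block, which pairs the samples, no member's call changed (Slfn9 WT rise 2.62, limma adjusted p = 7e-04; difference of responses -2.32, adjusted p = 0.0605), and over all genes the difference of responses was called higher in 4 and lower in 37, against 1 and 2 without it. Levels of Slfn8 and Slfn2 in untreated ΔC cells are limited by signal over background.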
